A study of Arabidopsis thaliana with 18 samples.

Results

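C24 is a natural accession of Arabidopsis thaliana, and the comparison described here sets 2 independent transgenic C24 lines that carry NahG, called C24 NahG 2 and C24 NahG 3, against wild-type C24 controls called C24B. Both lines and C24B contributed 2 libraries each, which gave 6 of the 18 libraries of the series, all from its later sequencing stage. All 6 came from rosette tissue of plants aged 21 days after sowing, grown at 21 °C in a day of 16 h light and 8 h dark and moved to soil at day 14, and each library pooled 6 to 10 plants. The submitters call these pools biological replicates, and the p-values below measure the spread between pools. The promoter that drives NahG was not given in the sources used here, salicylic acid itself was not among the measurements, and transcripts of the transgene were not analysed here. A gene was called where edgeR's quasi-likelihood F test gave a Benjamini-Hochberg adjusted p under 0.05 over all 20112 genes tested, of 37336 gene rows. A gene was counted as consistent where it was called in the same direction in both lines and all 4 NahG libraries lay beyond both C24B libraries.

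NahG encodes a bacterial salicylate hydroxylase that turns salicylic acid into catechol. Salicylic acid is a hormone of defence against biotrophic pathogens: it is made mainly through isochorismate, is sensed by the NPR proteins, and acts through TGA and WRKY transcription factors on genes such as PR1. The same hormone promotes leaf senescence, and it commonly acts against jasmonate, the hormone of the wound response.

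The consistent set held 1442 genes, 7.17% of those tested. Of these 1266 were lower in both lines (6.29% of genes tested) and 176 were higher (0.875%). The higher count moved with the method, to 436 with DESeq2, 481 with the replicate number as a block, 577 without a filter on low counts and 36 when tested against a fold of 1.5, and the lower count moved to 630 in the last of these. Line 2 alone had 1651 called genes (8.21%; 1.11% higher and 7.1% lower) and line 3 had 2062 (10.3%; 2.09% higher and 8.16% lower), and all 1442 genes called in both lines moved in the same direction, with no overlap between NahG and C24B libraries. The lines share their C24B controls, so this count is that of the rule and not independent support. Lack of overlap is common by itself. With no test, all 4 NahG libraries lay below both C24B libraries for 21.5% of genes tested and above both for 18.4%. The falls were also the larger changes. In both lines 844 genes were at least 2-fold lower, 258 at least 8-fold lower and 71 at least 32-fold lower, while 66 were at least 2-fold higher and 1 at least 8-fold higher. The median log2 fold change was −1.42 in line 2 and −1.51 in line 3 among the consistently lower genes, and 0.83 and 0.96 among the consistently higher, while the median over all genes tested was −0.0035 and −0.013. The consistently lower genes took 6.34% and 6.08% of reads in the C24B libraries and between 2.21% and 2.27% in the NahG libraries. Just inside the threshold lay SBP2, a selenium-binding protein gene, with log2 fold changes of 0.97 and 1.18 and a larger adjusted p of 0.05, and just outside it lay CCL, with −0.81 and −0.87 and also 0.05 after rounding.

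The 6 libraries held 28132721 to 32465711 reads counted to genes. Genes of light harvesting and Rubisco summed to 104960 CPM (read counts scaled to library size by TMM) in C24B replicate 1 and to 70637 to 79356 in the other 5 libraries. The 6 root markers summed to at most 0.206 CPM. The C24B libraries differed from each other more than the libraries of either line did, with a chi-square per degree of freedom of 45.1 against 17.1 in line 2 and 17.4 in line 3. C24B replicate 1 stood apart in several groups of genes, some shoot apex genes among them. Cell cycle and DNA replication genes summed to 327 CPM in C24B replicate 1 and to between 468 and 603 in the other 5 libraries. STM, a homeobox gene of the shoot meristem, was at 0.467 CPM in C24B replicate 1 and at 21.9 in C24B replicate 2. It was at 27.9 and 23.4 in line 2 and at 22.6 and 39.8 in line 3. The 13 shoot apex markers together summed to 109 CPM in C24B replicate 1 and to between 152 and 209 in the other 5 libraries. CLV3 had 0 reads in C24B replicate 1 and 2 to 23 in the others, while WUS had 0 or 1 in every library. ATH1 and CLV1 were not lower in it: ATH1 was at 53.9 and 49.4 CPM in C24B replicates 1 and 2, and CLV1 at 49.5 and 42.3. With C24B replicate 1 as the sole control, that is without C24B replicate 2, 1940 genes were consistently lower and 1836 higher. Without C24B replicate 1 the counts were 1240 and 181. Leaving out a library of line 2 gave 573 lower and 43 higher without replicate 1 and 592 and 31 without replicate 2, and leaving out one of line 3 gave 668 and 55 without replicate 1 and 553 and 39 without replicate 2. In all, 434 lower and 26 higher genes remained consistent in each of these 6 fits, and 1002 lower and 111 higher in the 2 fits that left out a C24B library. In none of them did a gene of the consistent set become consistent in the opposite direction. In bulk samples such as these, fewer cells of a type and less RNA per cell cannot be told apart.

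**Figure D1:**
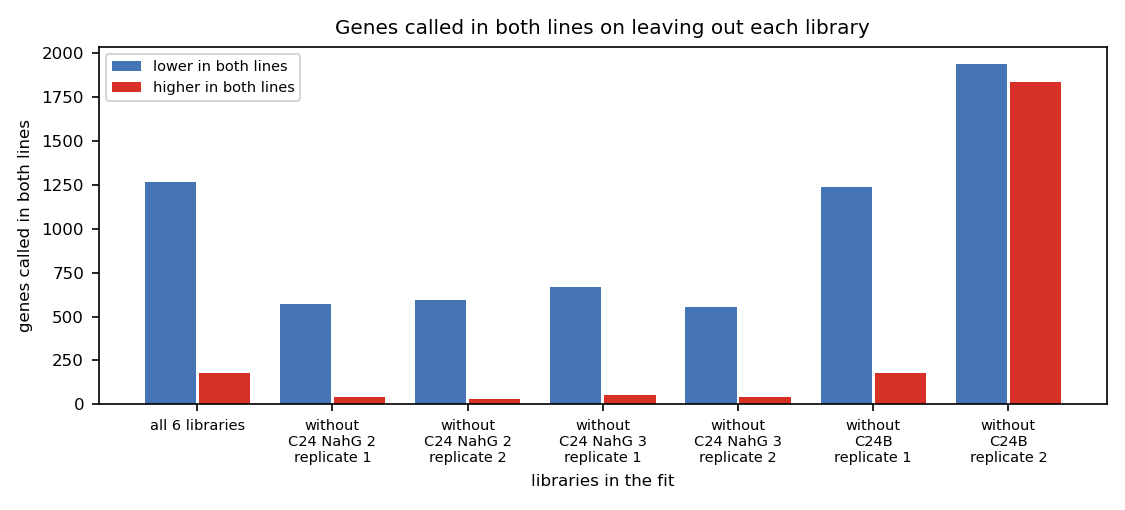
Number of genes called in the same direction in both lines with no overlap of libraries (vertical axis), in the fit of all 6 libraries and in the 6 fits that each leave out 1 library (horizontal axis). The consistently higher count runs from 31 to 1836 and the consistently lower count from 553 to 1940, both highest without C24B replicate 2.

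PR1 and LURP1 had the largest falls by the smaller of their changes in the 2 lines. PR1 (AT2G14610), a secreted pathogenesis-related protein, was at 1091 and 738 CPM in C24B, at 0.522 and 0.419 in line 2 and at 0.308 and 0.369 in line 3. All 4 NahG libraries were thus far below both controls and close to each other. Its log2 fold changes were −10.91 ± 0.32 (SE) and −11.38 ± 0.33, with adjusted p of 8.5e-06 and 7.9e-06. LURP1 (AT2G14560), needed for full resistance to downy mildew, went from 1130 and 915 CPM in C24B to 0.399 and 0.806 in line 2 and 0.308 in either library of line 3. PCC1 (AT3G22231), a small membrane-linked protein under clock and pathogen control, was at 472 and 353 CPM in C24B and at 0.154 to 0.548 in the NahG libraries. Both were below 1 CPM in every NahG library and at or above 353 CPM in both controls, with no overlap.

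ACD6 (AT4G14400), an ankyrin-repeat membrane protein that promotes defence and cell death, had 763 and 420 CPM in C24B, 0.737 and 1.29 in line 2 and 0.582 and 0.83 in line 3. The NahG libraries were all well below both controls, with log2 fold changes of −9.19 ± 0.43 and −9.69 ± 0.44 (adjusted p = 5.2e-05 and 4e-05). BDA1 (AT5G54610, also ANK), another ankyrin-repeat protein of immunity, was at 166 and 104 CPM in C24B and at 0.0685 to 0.387 in the lines. CNGC11 (AT2G46440), a cyclic nucleotide-gated channel, fell from 161 and 101 CPM to between 0.72 and 1.71. SIB1, which binds sigma factors and WRKY33, HIR2, of a family of membrane microdomain proteins, and the receptor-like kinase gene RLK1 also fell, with log2 fold changes between −4.99 and −5.75. All 15 of the largest falls named by the rule, which also took in WRKY54, CRK4, CRK5, CRK6, DMR6 and RLP23, stayed consistent in each fit that left out a library.

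The rises were smaller and fewer held in every such fit. CSLA01 (AT4G16590), of the glucomannan synthase family of the cell wall, was at 2.14 and 3.51 CPM in C24B, at 25.9 and 30.6 in line 2 and at 21.3 and 21.0 in line 3. The groups were far apart and either line was even, and the log2 fold changes were 3.31 ± 0.23 and 2.89 ± 0.23 (adjusted p = 0.00018 and 0.00026). XTH17, a xyloglucan-modifying enzyme, was at 0.778 and 0.989 CPM in C24B, at 3.93 and 4.67 in line 2 and at 6.30 and 6.71 in line 3. LTP4, a lipid transfer protein gene, was at 2.02 and 2.55 CPM in C24B, at 35.2 and 47.1 in line 2 and at 13.6 and 7.84 in line 3. It was thus higher in line 2 than in line 3 in these libraries, though no difference between the lines was called. AAE12 and 4CL8, of the acyl-activating enzyme family, and LUP1, a lupeol synthase, rose by 1.44 to 2.44 on the log2 scale in both lines. Of the 15 largest rises named by the rule, 9 held in each of the 6 fits. The other 6 (ACS4, an enzyme of ethylene synthesis, PGL5, JAL23, WNK9, UF3GT and XTH19) lost a call in at least 1 fit, where their largest adjusted p lay between 0.07 and 0.29.

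**Figure D2:**
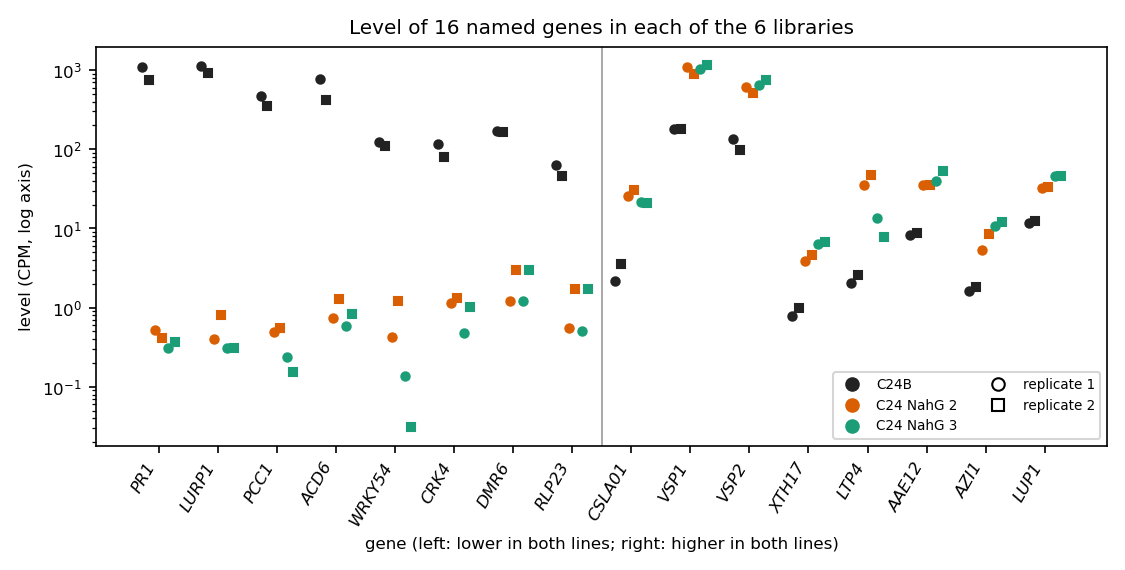
Level of 8 genes that were lower and 8 that were higher in both lines, in CPM on a log axis, 1 point per library, coloured by group and shaped by replicate number. PR1 stands at 738 and 1091 CPM in C24B and at or under 0.522 in the NahG libraries, and VSP1 at 178 and 179 CPM in C24B and at or above 904 in the NahG libraries.

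Short sequence motifs bound by 3 kinds of transcription factor were counted in the 300 bases before the annotated start of each gene, read from RefSeq's TAIR10.1 assembly. The motifs were the W-box core TTGAC, bound by WRKY factors, the TGA factor core TGACG, and the G-box CACGTG, which bHLH factors such as MYC2 bind, each on either strand. TTGACG holds both of the first 2 cores. Of 19414 tested genes with such a window 50.1% held a W-box core, against 63.8% of 1246 consistently lower genes, 72.4% of the 246 that were at least 8-fold lower in both lines, and 43.1% of 174 consistently higher genes. At least 2 copies were present in 17.7%, 30.7%, 41.1% and 10.9% of these sets. The TGA factor core was in 22% of tested genes, 27.1% of the lower, 34.1% of those at least 8-fold lower and 18.4% of the higher. The order was reversed for the G-box, found in 8.05% of tested genes, 6.98% of the lower, 4.88% of those at least 8-fold lower and 17.2% of the higher. Of all 27443 protein-coding genes of the 5 nuclear chromosomes, 50.4%, 21.3% and 7.09% held the 3 motifs. These shares describe letters in a window and were not tested, and base composition was not matched between the sets.

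The windows of 2 genes with repeated motifs show what these counts refer to, written from 5′ to 3′ on the gene's own strand, with the bases of any of the 3 motifs in capitals. PCC1 (chr3:7846834-7847133, minus strand) has 3 TGA factor cores and no W-box core, and CRK5 (chr4:12120221-12120520, minus strand), a receptor-like kinase gene of the CRK family, has 4 W-box cores.
PCC1: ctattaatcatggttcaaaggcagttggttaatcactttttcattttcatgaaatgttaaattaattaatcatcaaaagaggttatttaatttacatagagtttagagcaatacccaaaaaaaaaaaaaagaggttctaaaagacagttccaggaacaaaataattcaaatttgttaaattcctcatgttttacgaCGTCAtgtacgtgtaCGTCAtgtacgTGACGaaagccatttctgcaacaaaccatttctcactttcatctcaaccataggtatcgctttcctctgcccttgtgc
CRK5: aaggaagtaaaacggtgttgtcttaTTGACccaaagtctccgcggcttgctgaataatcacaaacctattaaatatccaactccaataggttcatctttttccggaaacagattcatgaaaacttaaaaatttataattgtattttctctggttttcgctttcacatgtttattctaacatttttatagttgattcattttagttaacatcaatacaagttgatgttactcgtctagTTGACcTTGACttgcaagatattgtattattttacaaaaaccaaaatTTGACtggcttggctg
ACD6, WRKY54, DMR6 and HIR2 held none of the 3 motifs in this window, so a large fall did not go with a match in every case.

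Gene lists written from general knowledge group the changes by role, and the plot of shares by list gives them side by side. Where a list is described, the shares to read it against are the 6.29% of tested genes that were consistently lower and the 0.875% that were higher. All 9 members of the pathogenesis-related and salicylate output list fell in both lines, with median log2 fold changes of −6.72 and −7.14. PR2 (AT3G57260), a beta-glucanase, was at 246 and 234 CPM in C24B, at 11.0 and 17.2 in line 2 and at 12.9 and 43.8 in line 3. PR5 (AT1G75040), a thaumatin-like protein, was at 310 and 242 CPM in C24B, at 8.66 and 7.25 in line 2 and at 11.0 and 18.8 in line 3. Both kept a level of several CPM, with line 3 replicate 2 the highest NahG library, where PR1 was almost absent. PR2 lost its call without line 2 replicate 1, while PR5 kept it in each fit. Without line 3 replicate 1 not all members of the list stayed consistent.

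**Figure D3:**
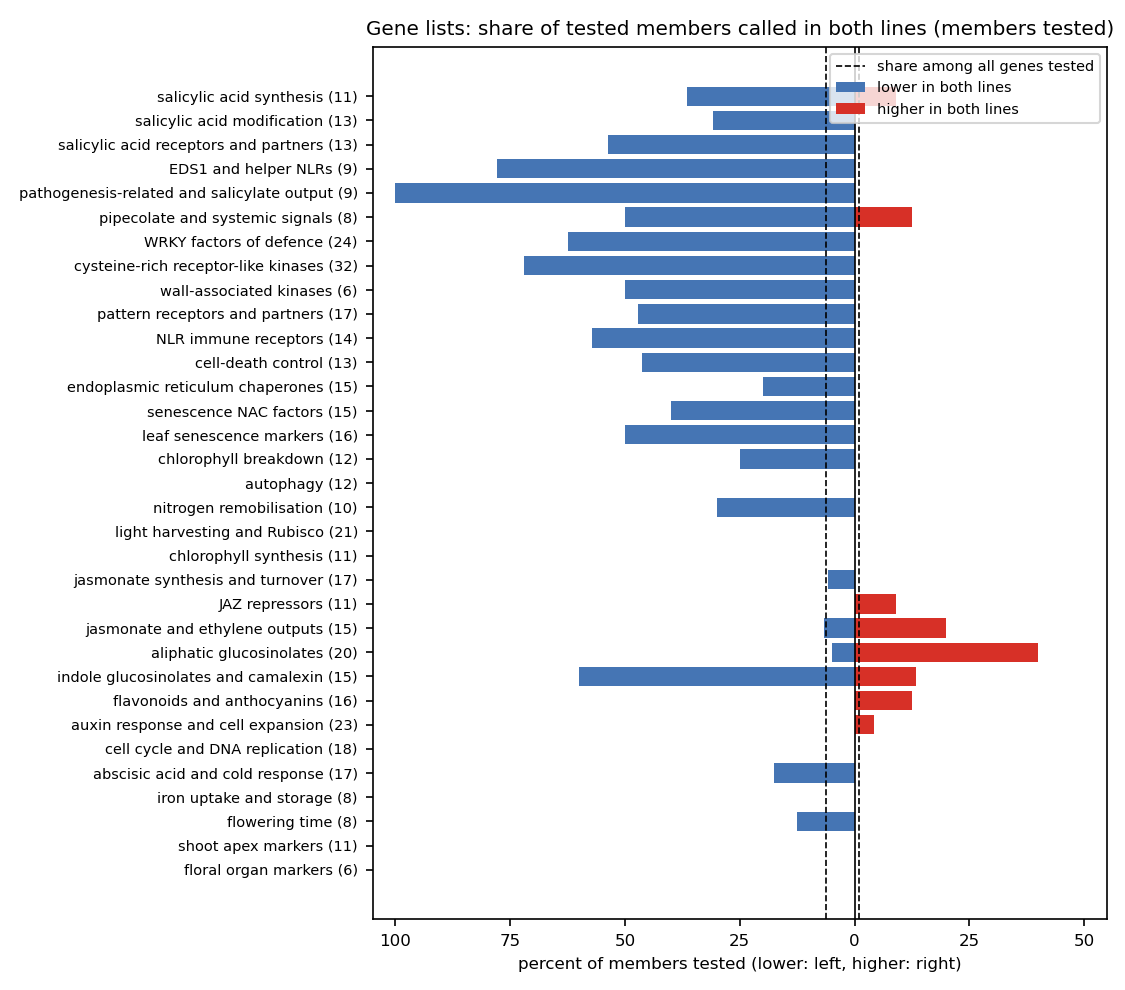
Share of each gene list's tested members that were called in both lines with no overlap of libraries, in percent, lower to the left and higher to the right, with the number of members tested in brackets. Dashed lines mark the shares among all genes tested, 6.29% lower and 0.875% higher. Bars of the defence lists run left, up to 9 of 9 members, and that of aliphatic glucosinolates runs right, with 8 of 20 members.

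Among 11 genes of salicylic acid synthesis 4 fell and 1 rose. SARD1, a transcription factor that switches on the isochorismate pathway, fell from 38 and 43.0 CPM in C24B to 0.768 and 2.9 in line 2 and to 1.78 and 0.677 in line 3, and its partner CBP60G fell from 32.7 and 29.6 to between 6.06 and 8.67. ICS1 (AT1G74710), the isochorismate synthase, was at 42.2 and 30.2 CPM in C24B, at 12.4 and 18.2 in line 2 and at 13.2 and 14.9 in line 3. The factors thus fell further than the enzyme they control, with log2 fold changes of −4.47 and −5.06 for SARD1 against −1.24 and −1.36 for ICS1, a contrast of sizes that was not itself tested. PBS3, which joins isochorismate to glutamate, also fell (−1.12 and −1.82), and EPS1, which releases salicylic acid from that product, rose from 6.81 and 7.56 CPM to 12.7 to 14.2. The MATE transporter gene EDS5 had log2 fold changes of −0.80 and −0.74 that missed the threshold (adjusted p = 0.06 and 0.067), and the phenylalanine ammonia-lyase genes PAL1 to PAL4 had 0 calls. The calls of ICS1 and PBS3 ended without line 2 replicate 1 and without either line 3 library, which left 2 falls in the list, and the list had 0 rises without either line 2 library or line 3 replicate 1.

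Of 13 tested genes that modify salicylic acid 4 fell and 0 rose. DMR6 (AT5G24530), which hydroxylates salicylic acid, was at 171 and 163 CPM in C24B, at 1.2 and 3.03 in line 2 and at 1.2 and 3.01 in line 3. DLO1 (AT4G10500), its relative in the same step, was at 28.6 and 25.1 CPM in C24B, at 0.369 and 1.68 in line 2 and at 0.617 and 0.185 in line 3. Both hydroxylase genes were thus near absent in either line, with log2 fold changes of −6.31 and −6.29 for DMR6 and −4.72 and −6.08 for DLO1. The glucosyltransferase gene UGT74F2 fell from 8.87 and 18.1 CPM to between 0.377 and 1.78, and UGT76B1, which glucosylates salicylic acid and N-hydroxypipecolate, had 307 reads in C24B and 3 in line 3, a ratio of 111 with an exact 95% counting interval of 37.5 to 540. These 2 calls ended without either library of line 2. The methyltransferase gene BSMT1 (6.89 and 19.1 CPM in C24B, 0 to 2.93 in the lines) was not called, with adjusted p of 0.2 and 0.11.

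Of 13 receptor and partner genes 7 fell and 0 rose, and the counts on leaving out a library ran from 5 to 7. NPR1 (AT1G64280), the co-activator that senses salicylic acid, was at 49.3 and 44.5 CPM in C24B, at 19.1 and 19.4 in line 2 and at 17.2 and 16.9 in line 3. NPR4, a receptor that represses the response in the hormone's absence, fell from 71.5 and 57.4 CPM to between 13.7 and 15.5. Fall sizes differed widely within the list. NPR1 had log2 fold changes of −1.29 and −1.46, whereas NIMIN1, a small protein that binds NPR1, had −6.5 and −7.57 and NIMIN2 had −4.15 and −4.94. Among the TGA factors TGA3 fell, from 70.5 and 57.3 CPM to 35.4 to 40.7, and TGA1, TGA2, TGA4, TGA5, TGA6 and TGA7 were not called. The fall of TGA3 was picked out after its values were seen.

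Upstream of salicylic acid, the EDS1 module relays signals of intracellular immune receptors. Of its 9 genes here 7 fell and 0 rose, with 5 to 7 on leaving out a library. EDS1 (AT3G48090) was at 80.0 and 79.9 CPM in C24B, at 22.4 and 31.1 in line 2 and at 26.3 and 25.7 in line 3, and its partner PAD4 at 67.9 and 61.7, at 11.6 and 17.1, and at 13.3 and 12.2. The controls were even and the lines stood at about the same level as each other. Log2 fold changes were −1.58 ± 0.16 and −1.62 ± 0.16 for EDS1 and −2.18 ± 0.19 and −2.35 ± 0.19 for PAD4. ADR1-L1, a helper receptor, fell (−1.77 and −2.03), and so did NDR1, which serves a different class of receptors (−2.82 and −3.02). The co-chaperone gene RAR1 had log2 fold changes of 0.01 and 0.05 (adjusted p = 0.97 and 0.84).

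The pipecolate branch makes N-hydroxypipecolic acid, the mobile signal of systemic resistance, and 4 of its list's 8 tested genes fell while 1 rose. ALD1, the first enzyme, was at 8.17 and 3.86 CPM in C24B, at 0.215 and 0.258 in line 2 and at 0.651 and 0.461 in line 3, and FMO1, the last, at 11.9 and 4.37, at 0.399 and 0.129, and at 0.651 and 0.461. C24B replicate 1 held more than replicate 2 of both, and all NahG libraries lay below both. Their calls ended on leaving out line 3 replicate 2, and that of FMO1 also without line 3 replicate 1, with a largest adjusted p of 0.064 and 0.11, which left 2 falls in the list. AED1 (AT5G10760), an apoplastic protease, fell from 463 and 334 CPM to between 8.14 and 18.3, and the amino acid transporter gene LHT1 from 101 and 86.1 to between 9.03 and 13. AZI1, a lipid transfer-like protein of systemic immunity, moved the other way, from 1.63 and 1.82 CPM in C24B to 5.35 and 8.45 in line 2 and 10.8 and 12.2 in line 3. That rise held in each fit.

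WRKY transcription factors of defence fell in 15 of 24 tested cases and rose in 0, with 11 to 15 falls on leaving out a library and median log2 fold changes of −1.74 and −2.16. WRKY70 (AT3G56400), a central factor of the salicylic acid response, was at 296 and 329 CPM in C24B, at 9.15 and 18.0 in line 2 and at 10.3 and 11.7 in line 3. WRKY54 (AT2G40750), its closest relative, was at 123 and 109 CPM in C24B, at 0.43 and 1.23 in line 2 and at 0.137 and 0.0308 in line 3. The pair thus fell from unequal levels, and WRKY54 fell further, with log2 fold changes of −7.13 and −10.41 against −4.53 and −4.82. WRKY38 had 2435 reads in C24B, 2 in line 2 and 1 in line 3, which are ratios of 1360 (exact 95% counting interval 375 to 11200) and 2630 (472 to 104000). WRKY62, which acts with it as a repressor of basal defence, had 462 reads in C24B, 15 in line 2 and 2 in line 3, a ratio of 250 for line 3 with an interval of 68.8 to 2070. Not every member moved: WRKY11, a negative regulator of basal defence, had log2 fold changes of −0.32 and −0.06, and WRKY22, of the flagellin response, 0.47 and 0.69, with adjusted p of 0.17 or more.

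The cysteine-rich receptor-like kinases (CRKs) are plasma membrane kinases with extracellular cysteine-rich domains, many of them known to be induced by salicylic acid and pathogens. Of 32 tested CRK genes 23 fell and 0 rose, and medians were −2.36 and −2.54 on the log2 scale. CRK4 (AT3G45860) was at 118 and 79.9 CPM in C24B, at 1.14 and 1.32 in line 2 and at 0.48 and 1.02 in line 3. CRK5 (AT4G23130) was at 44.6 and 25.4 CPM in C24B, at 0.584 and 0.387 in line 2 and at 0.48 and 0.523 in line 3. Either gene was far lower in all 4 NahG libraries than in both controls, with log2 fold changes of −6.32 and −7.02 for CRK4 and −6.15 and −6.11 for CRK5. CRK14 fell too (−4.36 and −4.86), as did CRK19 (−2.89 and −2.81). CRK23 and CRK24, below the level asked of the largest falls, had 751 and 745 reads in C24B and at most 10 in a line. CRK21 (0.50 and 0.47) and CRK42 (0.08 and −0.06) were not called. The count of falls was 15 without line 3 replicate 2 and 16 to 24 in the other 5 fits.

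Many CRK genes stand in tandem on chromosome 4, and the falls ran along much of these arrays. From CRK12 to CRK20 all 10 neighbouring tested genes, with AT4G23215 among them, were consistently lower, and from CRK5 to CRK10 all 6. CRK11, which lies between these runs, was not called, with log2 fold changes of −0.62 and −0.79 (adjusted p = 0.31 and 0.16). Nor was CRK22 (−0.34 and −0.70). Sizes differed from CRK12 to CRK20, from −1.56 and −1.81 at CRK17 to −4.49 and −5.01 at CRK15. Over the genome 32 runs of at least 3 neighbouring tested genes were consistently lower, with 116 genes in all, and there were 0 such runs of higher genes. With 6.29% of tested genes lower and 0.875% higher, fewer runs of higher genes would arise from the shares alone. How many runs to expect was not worked out, so the 2 counts are not compared. Other runs held the indole glucosinolate methyltransferase genes IGMT1 to IGMT4, and CNGC3, CNGC11 and CNGC12. Tandem copies are alike in sequence and the strand setting of the counting was not given, so reads may be split unevenly between neighbours and the value of any single copy is uncertain.

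**Figure D4:**
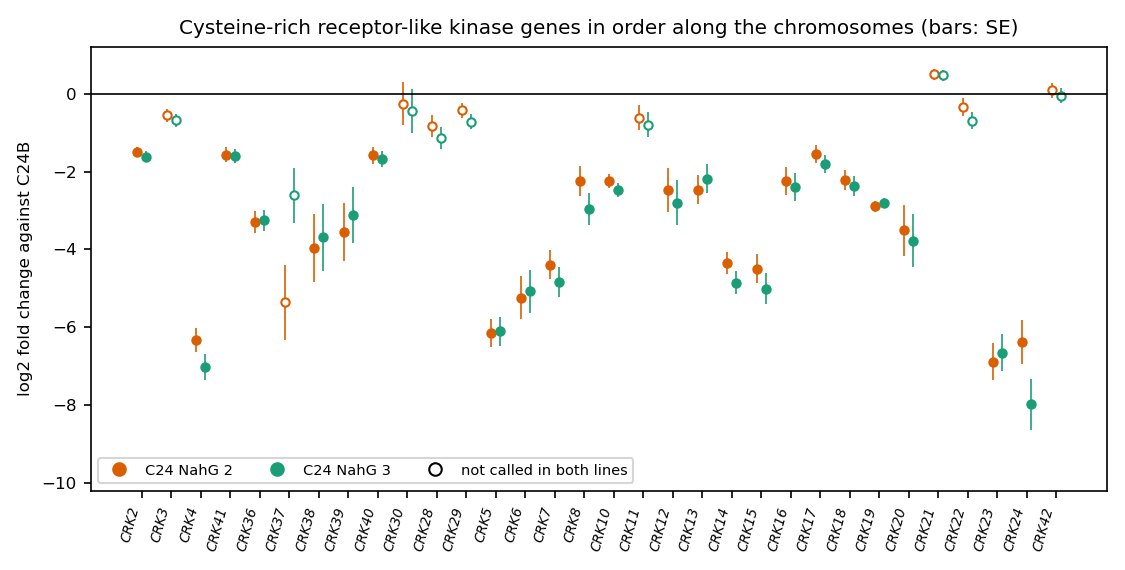
Log2 fold change against C24B of 32 cysteine-rich receptor-like kinase genes in both lines, ordered along the chromosomes, with bars of 1 SE and open points for genes not called in both lines. CRK5 to CRK8, CRK10, and CRK12 to CRK20 lie below 0 throughout, between −1.56 and −6.15 in line 2.

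Other surface receptors fell in part. The wall-associated kinase gene WAK1 (AT1G21250), whose product binds pectin fragments, was at 568 and 435 CPM in C24B, at 25.3 and 28.3 in line 2 and at 23.2 and 30.8 in line 3, and WAK2 fell from 320 and 234 CPM to between 37.8 and 41.5. WAK3 fell as well (−5.72 and −6.26), so that 3 of 6 tested family members fell. Of 17 pattern receptors and their partners 8 fell and 0 rose. SOBIR1, the co-receptor of receptor-like proteins, was at 130 and 115 CPM in C24B, at 11.2 and 15.2 in line 2 and at 13.8 and 12.0 in line 3. RLP23, one such protein, which binds a peptide of microbial NLP toxins, went from 63.3 and 46.3 CPM to between 0.514 and 1.72. FLS2, the flagellin receptor, had log2 fold changes of 0.43 and 0.20, its co-receptor BAK1 −0.23 and −0.39 and the oxidase gene RBOHD −0.11 and −0.22, none of them called. Without line 2 replicate 1 the list had 5 falls, and without C24B replicate 2 it had 2 rises.

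Intracellular receptors of the NLR class fell in 8 of 14 tested cases, with median log2 fold changes of −0.74 and −0.94. ZAR1, which forms a channel on activation, was at 193 and 161 CPM in C24B, at 57.3 and 49.8 in line 2 and at 48.0 and 50.6 in line 3. SNC1, whose gain of function causes autoimmunity, was at 356 and 281 CPM in C24B, at 204 and 161 in line 2 and at 160 and 146 in line 3. ZAR1 and the adaptor-like gene RLM3 kept their call in each of the 6 fits, whereas that of SNC1 ended in 5 of them with adjusted p up to 0.23. The count of falls was 11 without C24B replicate 2, 4 without C24B replicate 1 and 2 or 3 without a NahG library.

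Genes that restrain or drive cell death fell in 6 of 13 cases. MLO2, a susceptibility factor for powdery mildew, was at 314 and 283 CPM in C24B and at 108 to 122 in the NahG libraries, and the metacaspase gene MC2 fell from 14.7 and 11.1 to between 0.184 and 0.613. LSD1 and ACD11, whose loss causes runaway or spontaneous lesions, were not called, with log2 fold changes between −0.15 and 0.14. The count was 3 without line 2 replicate 2 and without line 3 replicate 2. Of 15 chaperones of the endoplasmic reticulum 3 fell and 0 rose. CRT3, the calreticulin needed for the EFR receptor, was at 226 and 180 CPM in C24B and at 41.5 to 46.1 in the NahG libraries, and its relative CRT1 had log2 fold changes of 0.01 and 0.05. The falls of BZIP60, a transcription factor of the unfolded protein response, and PDIL1-2, a disulfide isomerase, were smaller (−0.63 to −0.83). Both ended without line 2 replicate 1 and without either line 3 library, which left 1 fall, while without C24B replicate 2 the list had 7.

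Leaf senescence is the ordered dismantling of an ageing leaf. Of 16 senescence marker genes 8 fell and 0 rose, and of 15 senescence NAC factors 6 fell and 0 rose. SAG13 (AT2G29350), a short-chain dehydrogenase gene, was at 50.5 and 108 CPM in C24B, at 6.51 and 7.22 in line 2 and at 6.99 and 3.38 in line 3. YLS2 was at 53.4 and 52.4 CPM in C24B, at 13.4 and 17.1 in line 2 and at 15.1 and 18.3 in line 3. Of the named members of both lists SAG13, YLS2, NAC016 and JUB1 (AT2G43000), the last known to delay senescence, kept their call in each of the 6 fits. ORE1 (AT5G39610), a driver of senescence, fell from 3.74 and 12.3 CPM to between 0.582 and 1.03, with a largest adjusted p of 0.13, and SAG14 (AT5G20230) from 56.3 and 108 CPM to between 18.4 and 27.4, with a largest adjusted p of 0.11. The falls numbered 2 to 4 among the markers and 2 or 3 among the NAC factors on leaving out any 1 NahG library, and 11 and 10 without C24B replicate 1. SAG12, a cysteine protease of late senescence, was read at 0.856 and 4.4 CPM in C24B and at 0 reads in all 4 NahG libraries. With both C24B libraries pooled, this is at least 59.4-fold lower in line 2 and 57.7-fold lower in line 3, against a floor of 3 reads over a line. The pooled level rests mostly on C24B replicate 2, and the bound against C24B replicate 1 alone would be smaller. SAG12 was also at 0 in the wild-type C24 libraries of the first sequencing stage, described below. DESeq2 did not call it, nor did any fit without a NahG library.

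Of 12 chlorophyll breakdown genes 3 fell (CYP89A9, SGR2 and MES16), with log2 fold changes between −0.71 and −2.35, and all 3 calls ended without either line 2 library or line 3 replicate 2. The central enzymes of the pathway, PAO and PPH, had log2 fold changes of −0.37 and −0.56, and of 0.06 and 0.03, and were not consistent. Of 10 nitrogen remobilisation genes 3 fell, among them the cytosolic glutamine synthetase gene GLN1;1 (AT5G37600), at 187 and 177 CPM in C24B, 57.2 in both libraries of line 2, and 56.5 and 56.9 in line 3. The libraries of a line were nearly equal, with log2 fold changes of −1.67 ± 0.11 and −1.68 ± 0.11. ASN1, an asparagine synthetase, and NRT1.7, a nitrate transporter of old leaves, fell too, but not without line 2 replicate 2, where the list had 1 fall. Of 12 autophagy genes, 21 genes of light harvesting and Rubisco and 11 of chlorophyll synthesis, 0 were consistent in either direction. RBCS1A, a small subunit of Rubisco, was at 25838 and 19965 CPM in C24B, at 18770 and 18432 in line 2 and at 20705 and 17493 in line 3, overlapping ranges. Without C24B replicate 2, 6 light harvesting and Rubisco genes were lower, and without C24B replicate 1, 2 were higher and 2 autophagy genes were lower.

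Few jasmonate genes were consistent. VSP1 (AT5G24780), a vegetative storage protein induced by jasmonate, was at 178 and 179 CPM in C24B, at 1090 and 904 in line 2 and at 1039 and 1154 in line 3. VSP2 (AT5G24770), its neighbour and close copy, was at 136 and 97.0 CPM in C24B, at 614 and 512 in line 2 and at 646 and 740 in line 3. Either gene was higher by a like factor in both lines, and reads may be shared between the copies. Of 15 jasmonate and ethylene output genes 3 rose (VSP1, VSP2 and the thionin gene THI2.1) and 1 fell. The share of rises was 20% against 0.875% of all genes tested, and that of falls 6.67% against 6.29%. The gene that fell was TAT3, a tyrosine aminotransferase also induced by jasmonate. It went from 85.9 and 94.1 CPM in C24B to 11.8 and 17.1 in line 2 and 8.60 and 11.7 in line 3. The rise of THI2.1 was lost on leaving out either line 2 library or line 3 replicate 2, with adjusted p up to 0.14. The defensin gene PDF1.2 stood at 2.14 and 0.702 CPM in C24B and at 0.617 to 6.03 in the lines, overlapping ranges. Without either C24B library the list had 2 falls.

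Of 11 JAZ genes, which encode the repressors of jasmonate signalling, 1 rose and 0 fell. That was JAZ9 (AT1G70700), at 177 and 160 CPM in C24B, 298 and 305 in line 2 and 338 and 385 in line 3, a rise that ended without either library of line 2, and the list had 0 rises without line 2 replicate 2. JAZ10 had log2 fold changes of 1.2 and 1.34 and JAZ5 of 1.03 and 1.29, without a call, and without C24B replicate 2 the list had 6 rises. Of 17 genes of jasmonate synthesis and turnover 1 fell, a share of 5.88% against 6.29% of all genes tested. That was the lipoxygenase gene LOX3, from 65.9 and 50.1 CPM to between 22.4 and 26.9. Its call was lost without line 2 replicate 2 or line 3 replicate 2. LOX2, the main chloroplast lipoxygenase, had −0.15 and −0.60 and was not called. Without C24B replicate 2 the synthesis list had 4 falls and 1 rise. MYC2 was listed at 0 reads in all 6 libraries, and whether its reads were lost in the counting is not known.

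Glucosinolates are sulfur-containing defence compounds of the cabbage family. Of 20 genes of the aliphatic branch, which starts from methionine, 8 rose and 1 fell, with median log2 fold changes of 0.70 and 0.85. MYB76 (AT5G07700), one of the factors that control the branch, was at 5.68 and 7.94 CPM in C24B, at 14.9 and 12.9 in line 2 and at 17.6 and 15.9 in line 3. SOT18, a sulfotransferase of the last core step, was at 121 and 118 CPM in C24B, at 212 and 202 in line 2 and at 192 and 230 in line 3. BAT5, a chloroplast transporter, had log2 fold changes of 0.68 and 0.89, and FMO GS-OX1, which oxidises the side chain, of 1.05 and 1.27. The fall was of FMO GS-OX5 (−0.56 and −0.68), of the same enzyme family, picked out after its values were seen. MYB28, the main factor of the branch, had 0.38 and 0.41 and was not called. The list had 16 rises without C24B replicate 2, 7 without C24B replicate 1, 0 without either line 2 library and 1 without either line 3 library.

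The indole branch starts from tryptophan and shares its first steps with camalexin, the main phytoalexin of the species. Of its 15 genes 2 rose and 9 fell. CYP79B3 (AT2G22330), which makes the shared aldoxime, was at 76.9 and 73.8 CPM in C24B, at 187 and 198 in line 2 and at 188 and 245 in line 3. MYB34, a factor that switches on the branch, was at 13.7 and 16.1 CPM in C24B, at 29.4 and 36.8 in line 2 and at 38.8 and 40.5 in line 3. Both rises held in each of the 6 fits. On the camalexin side, CYP71A13 (AT2G30770) was at 16.5 and 18.9 CPM in C24B, at 2.15 and 2.26 in line 2 and at 0.514 and 0.492 in line 3, and PAD3, the last enzyme, at 28.6 and 36.3, at 3.01 and 5.77, and at 1.95 and 3.23. Either line was below both controls for both genes. CYP71A13 was lower in line 3 than in line 2, a difference that the test between the lines did not call. MYB51, the factor tied to defence, and CYP81F2 and PEN2, which serve the pathogen-induced use of indole glucosinolates, fell with log2 fold changes between −0.73 and −1.85. Without a NahG library 2 or 3 falls were left in the list, and both rises.

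**Figure D5:**
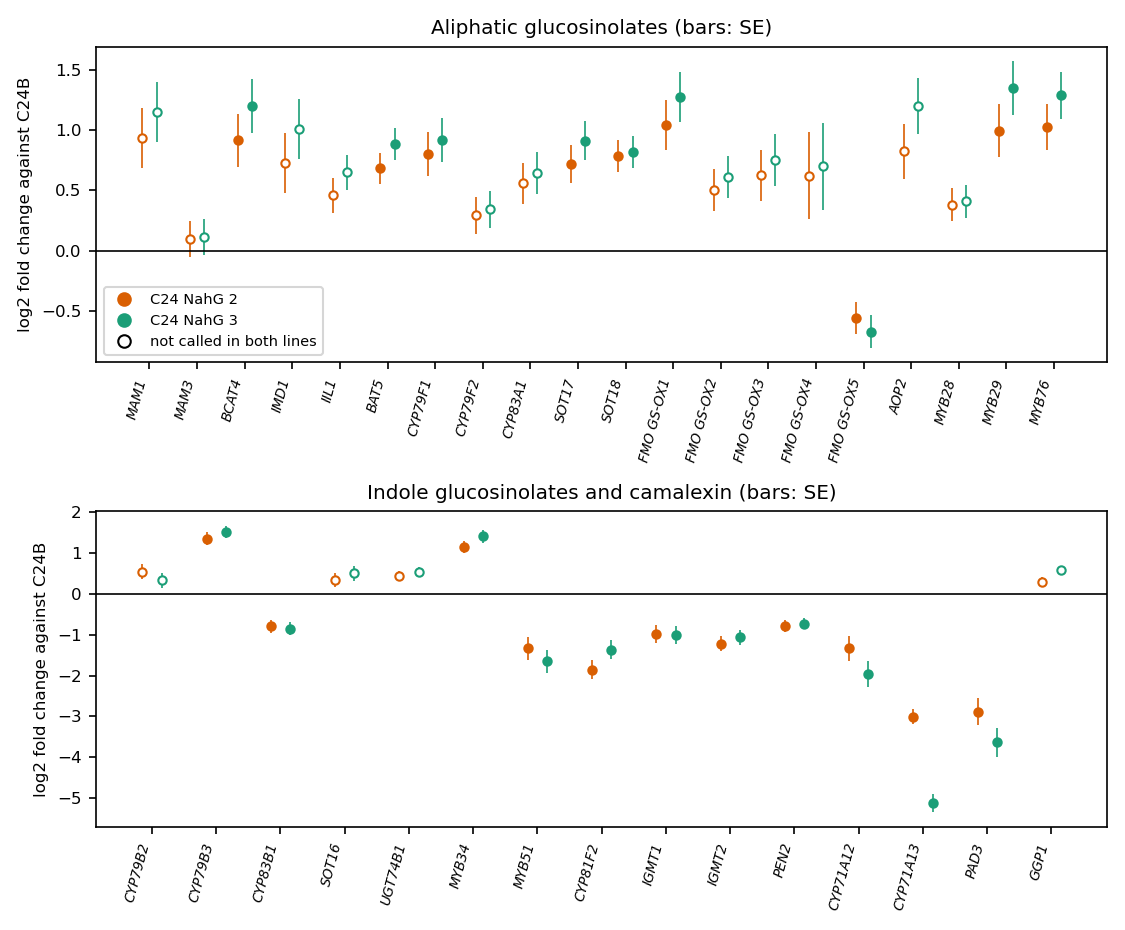
Log2 fold change against C24B of 20 aliphatic glucosinolate genes (top) and 15 indole glucosinolate and camalexin genes (bottom) in both lines, with bars of 1 SE and open points for genes not called in both lines. Aliphatic genes lie mostly above 0, and in the lower panel CYP79B3 and MYB34 lie above 0 while CYP71A13 and PAD3 lie lowest.

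Other growth and stress lists held few consistent genes. Of 16 flavonoid and anthocyanin genes 2 rose, the chalcone isomerase-like gene CHIL (0.60 and 0.81) and the anthocyanin glycosyltransferase gene UF3GT (1.48 and 1.88), and both calls ended on leaving out any 1 of the NahG libraries. Of 23 auxin and cell expansion genes 1 rose, XTH7 (0.62 and 1.02), and its call ended in the same way. The list did not hold its relatives XTH17 (2.27 and 2.87) and XTH19 (1.46 and 1.66), named above among the largest rises. Its count therefore does not cover all genes of cell expansion. Of 18 cell cycle and DNA replication genes 0 were consistent. The cyclin gene CYCD3;1 was at 32.3 and 53.9 CPM in C24B, at 62.7 and 82.1 in line 2 and at 73.6 and 89.5 in line 3, above both controls in all 4 libraries but with adjusted p of 0.13 and 0.06. Without C24B replicate 2, the control with STM at 0.467 CPM being the sole one, 12 cell cycle genes, 10 flavonoid genes, 6 auxin and expansion genes and 6 of 11 tested shoot apex markers were consistently higher. The part of shoot apex tissue in these rises was not tested.

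Of 17 abscisic acid and cold response genes 3 fell, all of them protein phosphatase genes that restrain abscisic acid signalling (HAI1, HAB1 and ABI1), with log2 fold changes between −0.48 and −2.40 and with calls that ended on leaving out a library. Of 8 flowering time genes 1 fell, the floral integrator SOC1 (AT2G45660), from 12.8 and 17.9 CPM to between 6.24 and 9, also lost without any 1 NahG library. FLC, which represses flowering, was at 15.7 and 14.6 CPM in C24B and at 13.4 to 16.9 in the lines. Of 8 iron genes, 11 shoot apex markers and 6 floral organ markers 0 were consistent. The floral markers summed to 8.85 and 8.57 CPM in replicate 1 of line 2 and of line 3 and to between 2.74 and 3.08 in the other 4 libraries.

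Between the lines themselves 0 genes were called by edgeR, with 590 at an unadjusted p under 0.05, 13 called by DESeq2 and 0 by limma voom. The smallest adjusted p was 0.47. A line difference such as that of WRKY54, LTP4 or CYP71A13 is therefore given here by its values alone.

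The 3 wild-type C24 libraries of the first sequencing stage, of the same age and tissue, took no part in the choice of genes and give a second set of control levels. The 4 NahG libraries did take part in it, so the counts below are a description and no independent test, and stage and genotype cannot be told apart in that contrast. Scaled together with the 6 later libraries, all 3 lay above all 4 NahG libraries for 1214 of the 1266 consistently lower genes (95.9%). All 3 lay below for 165 of the 176 consistently higher genes (93.8%). Over all genes tested, all 3 lay above all 4 NahG libraries for 29.6% and below them for 28.5%. The remaining consistent genes include some at which first-stage C24 was level with the NahG libraries or beyond them. MES16, called lower, was at 16.4, 15.4 and 15 CPM in first-stage C24, below all 4 NahG libraries (19.8 to 25.1). XTH17, called higher, was at 4.36, 5.57 and 4.82 CPM there, inside the NahG range of 3.93 to 6.7, and LOX3, called lower, was at 33.2, 25.8 and 26.1 against 22.3 to 26.9. These 3 were picked out after their values were seen. On that scale PR1 was at 2711, 3045 and 2521 CPM in first-stage C24, above both C24B libraries. EDS1 was at 105, 113 and 104 CPM there and CYP79B3 at 51.2, 29.5 and 31.5. The 2 sets of controls also differed in level for some genes that kept the direction: VSP1 was at 29.7, 25.6 and 31.9 CPM in first-stage C24 against 176 and 177 in C24B, and CSLA01 had 0 reads in 2 of the 3 first-stage libraries. STM was at 26.6, 24.1 and 26.6 CPM, near the level of C24B replicate 2 and of the lines. SAG12 was at 0 reads in all 3.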

How the data were processed

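Gene counts were deposited by the authors as whole reads per gene and library. STAR 2.5.3, DESeq2 and the TAIR10 build are named in the submitters' processing notes, without settings, and no source used here gives the strand or the annotation. The 5 rows that name no gene were left out. Per library they held 6.02% to 10.3% unmapped reads and 3.47% to 3.95% reads in more than 1 gene. Symbols matched 37051 of 37336 rows in RefSeq's table, and promoter windows came from RefSeq TAIR10.1.

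Groups came from the labels. With edgeR 4.0.16 in R 4.3.3, genes were kept by filterByExpr, scaled by TMM and fitted with 1 coefficient per group over the 6 libraries. All adjusted p-values are from its quasi-likelihood F test unless another tool is named. The fit was run on counts simulated from its own model, which cannot show how well that model describes these libraries. Each SE was taken as |log2 fold change| over the root of F. DESeq2 1.42.0, limma 3.58.1 and the other alternatives are given in the closing section. Intervals on read ratios cover counting error only.

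Named were the 15 largest falls and rises with a symbol and a mean log2 CPM of at least 1, up to 4 consistent members per list by adjusted p, or the 2 highest where fewer than 2 were consistent, and a set of standard genes; other members are given to complete a list and were picked with their values seen. The 34 lists kept 506 entries, 504 distinct genes, of which 464 passed the filter. The members and lists were chosen with earlier results of these data known. Of the members not tested, DIR1, WAK5, WAKL1, WAKL2, RPM1, RPS2, MYC2, F3H, RHD6, COBL9 and EXPA18 were listed at 0 reads in all 6 libraries. Whether such a row means no transcript or reads set apart before the counts were deposited is not known. The root list had 0 genes tested. Some promoter sequences are not reported here.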

Additional observations from a re-analysis of the deposited data

How the results depend on the processing

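With edgeR on RLE size factors, limma voom, fits of the compared groups alone and the lines as 1 group, the counts of called and consistent genes stayed within 1.5 times the values reported. Without a filter on low counts line 2 had 2504 calls, line 3 3325, and 577 genes were consistently higher. Tested against a fold of 1.5 the calls were 720 in line 2, 847 in line 3 and 1024 together, with 36 genes consistently higher and 630 lower. DESeq2 gave 436 consistently higher genes. Between the lines DESeq2 called 13 genes, and the fit without a filter also 13. On leaving out 1 library the calls ran from 630 to 4235 in line 2, 606 to 5312 in line 3, 1410 to 5553 together and 0 to 2 between the lines, with 31 to 1836 genes consistently higher and 553 to 1940 lower. Where a group was left with 1 library, that library was assumed to vary like the other groups. The cause of these shifts was not tested.

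The share of calls that were higher was 13.6% in line 2, 20.4% in line 3 and 21.6% together. It was 25.1%, 30.5% and 33.4% with DESeq2, 29.5%, 34.3% and 35% without a filter, and 48.4%, 47.4% and 46.5% without C24B replicate 2. With the replicate number as a block it was 26.2%, 32.3% and 33.7%, and 2294, 3069 and 3811 genes were called, with 481 consistently higher and 1494 lower. Same-numbered libraries deviated together only weakly, with correlations of 0.126, 0.128 and 0.024, so the numbers are not taken to pair the samples. For the named genes 3086 of 3328 alternative values kept their side of the threshold, 215 lost a call, 27 gained one and 0 reversed. A change of sign was counted as a reversal only where the gene was called in the main fit or in the alternative. With 2 libraries per group, single calls near the threshold are the least certain.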
